A study of Mus musculus with 11 samples.

Results

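Plasma cells are the antibody-secreting end stage of the B cell lineage, and 6 genes that identify them are described here: Jchain, Mzb1, Sdc1, Prdm1, Irf4 and Slamf7. The members were chosen by gene symbol, with no measured value in the rule, and all 6 were found among the 10885 genes of the table. RNA was measured by RNA-seq in cells of whole spleen and lymph node (LN) from 6 mice, and 11 libraries were used. Wild-type mice 1 and 2 (Wt) and knock-in mice 5 and 6 (KI, Igk-BCL2) each gave a spleen and an LN library. Transgenic mouse 4 (Tg, 3'RR-BCL2) gave both as well, and transgenic mouse 3 was used for LN only, so spleen Tg has 1 library and the other 5 groups have 2 each. All the groups share the same treatment: sheep red blood cells were injected intraperitoneally during 3 months of repeated immunisation, and tissue was taken 1 month after the last of them. No group was left unimmunised, and no age, strain or sex is given in the labels.

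The Tg construct couples BCL2, an anti-apoptotic gene, to the 3'RR, which is the enhancer cluster downstream of the antibody heavy chain genes and is active in mature B cells and plasma cells. In KI mice BCL2 sits at the immunoglobulin kappa light chain locus, which is active from early B cell development up to the plasma cell. When a B cell becomes a plasma cell, Irf4 and Prdm1 (Blimp-1) act as the transcription factors that set the secretory programme and shut down B cell genes. Irf4 is also induced by antigen receptor and other activating signals in B and T cells, and Prdm1 is also used by effector T cells and some myeloid cells. Mzb1 is an endoplasmic reticulum chaperone that helps assemble immunoglobulin, and Jchain is the small chain that joins IgM and IgA into polymers. Sdc1 (syndecan-1, CD138) and Slamf7 (CD319) are carried on the surface. Sdc1 is the usual flow cytometry marker of plasma cells, while Slamf7 is also found on NK cells and other leukocytes.

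The values are a normalised signal, which is the number of reads of a gene divided by a factor for its library. It is not corrected for gene length, so levels are compared between libraries and not between genes. The libraries held from 11128568 to 24110325 reads over the genes of the table. The smallest number of reads behind a value of the 6 genes in LN was 66, for Prdm1 in Wt mouse 1. Mouse 1 was female by Xist, at 14513 in its spleen against at most 4.30 in the other spleens, and the other mice expressed the Y-linked gene Ddx3y. In whole tissue, fewer cells of a type and less RNA per cell cannot be told apart. Each genotype is 2 mice, the only female is a Wt mouse, and p-values measure the spread between these mice only. Leaving out both libraries of mouse 1 leaves 1 Wt library in each tissue. In that fit Jchain, Mzb1, Sdc1, Prdm1 and Slamf7 stayed higher in KI than in Wt in both tissues. Irf4 was lower in KI in both, with a log2 difference of -0.74 in LN.

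The labelled cell type, whole tissue cells, was checked against markers. Of the 12 pan B genes and 13 pan T genes on the lists all were present in every library. Plasma cell genes outside the 6 were present as well: the receptor Tnfrsf17 (BCMA) ranged from 7.66 to 124, the secretory regulator Xbp1 from 1730 to 10174, and the endoplasmic reticulum genes Derl3 and Txndc5 from 139 to 2737 and from 1874 to 8786.

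Promoters are shown for 4 of the genes because the members divide in their response: Jchain had the largest change, Irf4 went the other way in spleen, and Prdm1 and Slamf7 are the 2 in which any of the motifs searched was found. Each line gives the 250 bases before the RefSeq start of the gene, 5′ to 3′ on its own strand, with motif matches in capitals. The build is GRCm38.p6, which is not the build of the deposited values (GRCm39). Jchain lies at chr5:88527898-88528147 on the minus strand, Irf4 at chr13:30748983-30749232 on the plus strand, Prdm1 at chr10:44458749-44458998 on the minus strand and Slamf7 at chr1:171649000-171649249 on the minus strand. RefSeq windows were found for 5 of the 6 genes, all but Mzb1.
Jchain: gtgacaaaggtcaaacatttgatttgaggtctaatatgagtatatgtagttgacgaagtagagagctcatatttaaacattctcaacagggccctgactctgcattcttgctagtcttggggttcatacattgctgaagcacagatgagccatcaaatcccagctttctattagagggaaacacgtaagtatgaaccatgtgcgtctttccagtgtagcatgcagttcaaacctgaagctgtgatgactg
Irf4: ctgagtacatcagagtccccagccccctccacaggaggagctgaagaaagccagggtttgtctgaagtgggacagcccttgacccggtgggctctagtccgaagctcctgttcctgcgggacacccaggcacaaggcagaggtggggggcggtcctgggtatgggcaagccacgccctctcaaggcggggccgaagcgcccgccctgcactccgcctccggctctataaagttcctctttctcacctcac
Prdm1: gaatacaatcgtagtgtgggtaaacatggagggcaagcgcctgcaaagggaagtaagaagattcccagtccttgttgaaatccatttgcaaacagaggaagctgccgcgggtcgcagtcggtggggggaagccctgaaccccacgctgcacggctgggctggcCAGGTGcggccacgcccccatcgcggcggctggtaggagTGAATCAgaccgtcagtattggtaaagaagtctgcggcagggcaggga
Slamf7: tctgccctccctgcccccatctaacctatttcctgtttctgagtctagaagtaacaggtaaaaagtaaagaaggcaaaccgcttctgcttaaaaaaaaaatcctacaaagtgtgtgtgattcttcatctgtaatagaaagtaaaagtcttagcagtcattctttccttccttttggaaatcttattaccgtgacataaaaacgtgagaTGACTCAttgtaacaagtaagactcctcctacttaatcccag

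The motifs searched on both strands were the octamer (ATGCAAAT), the interferon-stimulated response element (GAAA and GAAA with 2 bases between), the Ets-IRF composite element (GGAA and GAAA with 2 bases between), AP-1 (TGANTCA), kappaB (GGG and TTTCC with 2 bases between), the unfolded protein response element (TGACGTGG), EGR (GCGNGGGCG) and the E2A E-box (CAGGTG). The Slamf7 window held 1 AP-1 match, 42 to 36 bases before the start. The Prdm1 window held 1 AP-1 match, 48 to 42 bases before the start, and 1 E-box match, 87 to 82 bases before it. No match to the letters was found in the windows of Jchain, Irf4 or Sdc1. Among 32851 RefSeq windows of the same length, 6.75% held the AP-1 letters and the E-box letters were the most common of the 8 motifs, while the other motifs were held by 0.563% to 4.70%. The GC content was 38.0% in the Slamf7 window, 42.0% in Jchain, 59.2% in Prdm1, 63.6% in Irf4 and 66.0% in Sdc1. A match is a description of the letters and shows no binding.

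**Figure D1:**
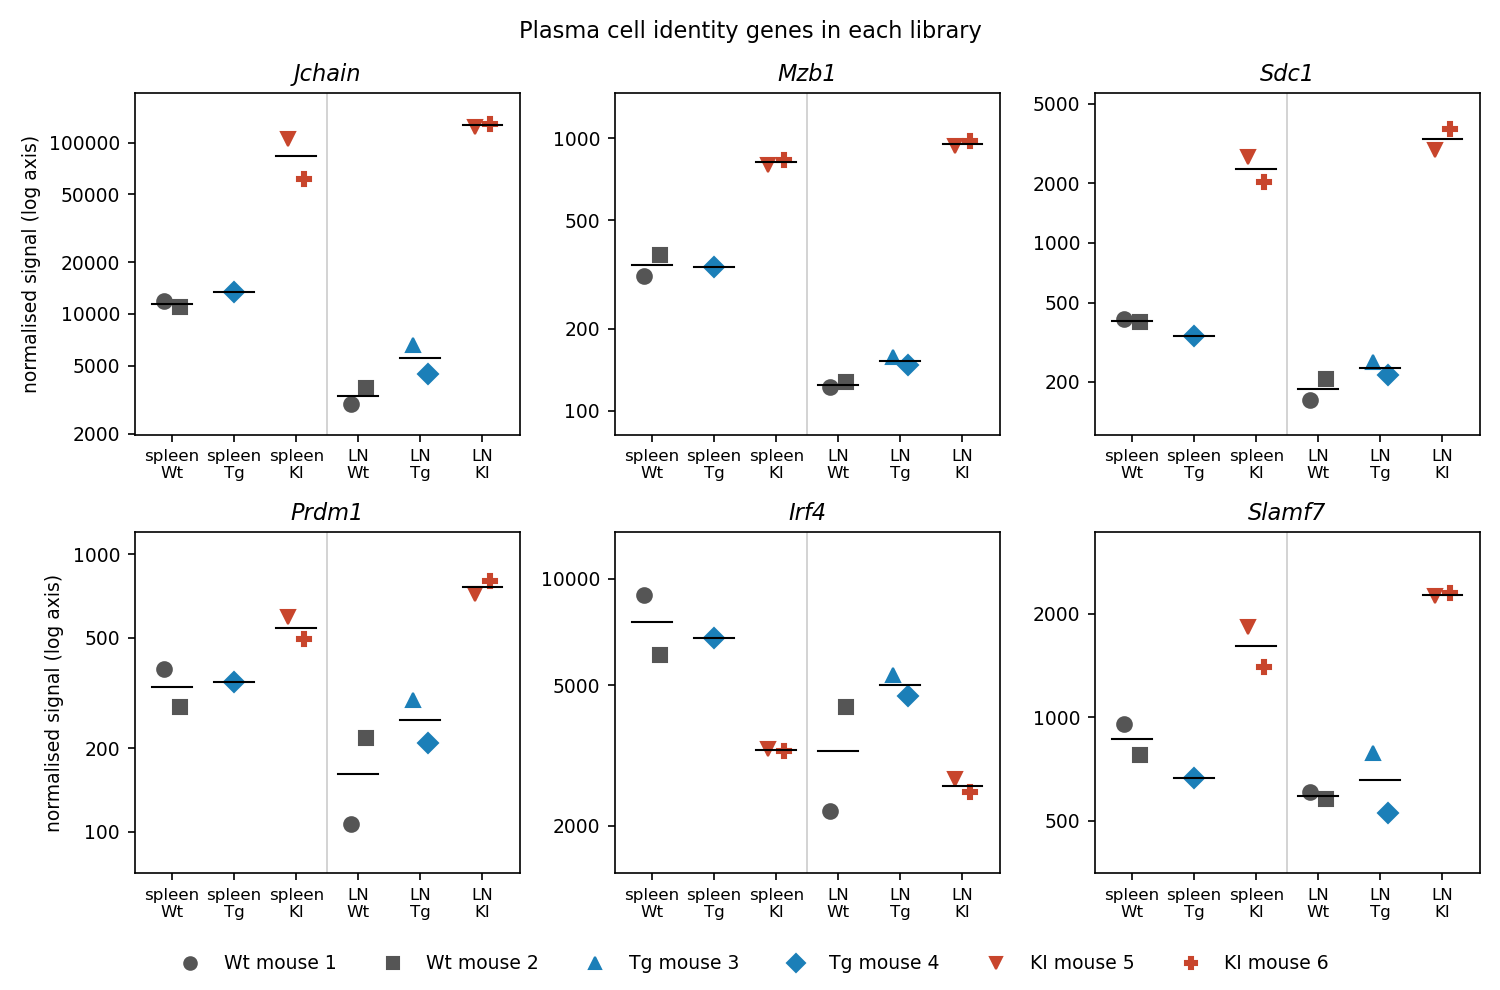
Normalised signal (log axis) of the 6 plasma cell genes in each of the 11 libraries, by tissue and genotype. Points are mice and the horizontal lines are group means; in every gene but Irf4 both KI libraries of a tissue lie above all Wt and Tg libraries of that tissue.

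The question put to the knock-in mice was how the genes differ from wild type in each tissue. Jchain, Mzb1, Sdc1, Prdm1 and Slamf7 were all raised in LN of KI mice over Wt, by 3.84-fold (Slamf7) to 37.9-fold (Jchain) in the fit. The 4 genes Jchain, Mzb1, Sdc1 and Slamf7, were also higher in KI spleen, by 1.86-fold to 7.02-fold. Irf4 did not follow: it was lower in KI spleen, at 0.442 times the Wt level, and did not pass the test in LN. Of the 6 genes 5 were thus called in each tissue (limma, Benjamini-Hochberg adjusted p under 0.05 over all genes). In LN 26% of all genes were called, 13.8% higher and 12.2% lower, and in spleen 16.8%, 7.63% higher and 9.21% lower.

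Those all-gene splits depend on the scaling. When libraries were scaled without immunoglobulin and haemoglobin genes, 2107 genes were higher and 853 lower in KI LN, against 1502 and 1331 with the deposited scale. In spleen the same scaling gave 1419 higher and 770 lower against 830 and 1003. The median log2 change of all genes moved from -0.02 to 0.11 in LN and from 0.01 to 0.10 in spleen. Set relative to pan B genes, the calls were 657 higher and 3914 lower in LN and 208 and 2481 in spleen, with medians of -0.42 and -0.34. The 5 genes called in KI LN kept their call and their direction under each of these scalings, and Irf4 was lower in KI spleen under each.

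Jchain, the polymer chain (ENSMUSG00000067149), gave a normalised signal of 2972 and 3700 in LN of Wt mice 1 and 2. It gave 6602 and 4465 in LN of Tg mice 3 and 4, and 122650 and 128795 in LN of KI mice 5 and 6. The KI nodes stand far above all others and differ little from each other, and the Tg nodes lie above the Wt nodes without overlap. In spleen Jchain was 11929 and 10992 in Wt mice 1 and 2, 13506 in Tg mouse 4, and 105380 and 61413 in KI mice 5 and 6. The KI spleens do not overlap with the others, and mouse 5 was 1.72 times mouse 6. The mean was 125722 ± 4346 in KI LN and 3336 ± 515 in Wt LN (SD, n = 2 each). On the log2 scale the fitted difference was 5.24 ± 0.26 (SE, limma adjusted p = 1.28e-05). In spleen the means were 83396 ± 31089 and 11460 ± 662 (SD, n = 2 each), and the fitted difference was 2.81 ± 0.26 (limma adjusted p = 0.000478). Jchain alone took 0.0166% and 0.0205% of the signal of the Wt nodes and 0.680% and 0.741% of that of the KI nodes.

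Mzb1, the immunoglobulin chaperone (ENSMUSG00000024353), was 123 and 127 in LN of Wt mice, 157 and 148 in LN of Tg mice, and 937 and 975 in LN of KI mice. Replicates of each group lie close together, and none of the 3 genotypes overlaps another in LN. In spleen Mzb1 was 311 and 372 in Wt, 337 in Tg mouse 4, and 801 and 836 in KI. The Tg spleen lies between the 2 Wt spleens, and both KI spleens lie above. The log2 difference between KI and Wt was 2.93 ± 0.14 in LN (limma adjusted p = 3.06e-06) and 1.26 ± 0.14 in spleen (limma adjusted p = 0.000478). By p-value Mzb1 ranked 2 among all genes in LN.

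Sdc1, the surface proteoglycan CD138 (ENSMUSG00000020592), was 163 and 207 in LN of Wt mice, 252 and 217 in LN of Tg mice, and 2915 and 3760 in LN of KI mice. In spleen it was 412 and 398 in Wt, 342 in Tg mouse 4, and 2692 and 2029 in KI. In each tissue the KI libraries stand apart, and the single Tg spleen lies below both Wt spleens. The log2 difference between KI and Wt was 4.17 ± 0.18 in LN (limma adjusted p = 2.03e-06) and 2.53 ± 0.18 in spleen (limma adjusted p = 6.1e-05). Sdc1 ranked 1 by p-value among all genes in KI LN and 6 in KI spleen.

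Slamf7, the other surface gene (ENSMUSG00000038179), was 606 and 578 in LN of Wt mice, 788 and 527 in LN of Tg mice, and 2249 and 2302 in LN of KI mice. The Tg nodes lie on either side of the Wt nodes, and the KI nodes are well above both. In spleen Slamf7 was 955 and 777 in Wt, 664 in Tg mouse 4, and 1828 and 1402 in KI, again with KI highest and no overlap. The log2 difference between KI and Wt was 1.94 ± 0.19 in LN (limma adjusted p = 0.000127) and 0.89 ± 0.19 in spleen (limma adjusted p = 0.0133). The spleen call rests on few libraries: without the KI spleen of mouse 5 the difference was 0.70 (limma adjusted p = 0.0999), and without the Wt spleen of mouse 2 it was 0.74 (limma adjusted p = 0.0909). Without both libraries of the female mouse 1 it was 1.04 (limma adjusted p = 0.0557).

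Prdm1, the transcription factor Blimp-1 (ENSMUSG00000038151), was 106 and 218 in LN of Wt mice, 299 and 208 in LN of Tg mice, and 721 and 799 in LN of KI mice. The Wt nodes differ 2.05-fold from each other and overlap with the Tg nodes, while both KI nodes are above all of them. In spleen Prdm1 was 384 and 282 in Wt, 347 in Tg mouse 4, and 592 and 493 in KI. The KI spleens lie above the others without overlap. The log2 difference between KI and Wt was 2.31 ± 0.32 in LN (limma adjusted p = 0.0013). In spleen it was 0.71 ± 0.32 and did not pass (limma adjusted p = 0.167), with a 95% interval from -0.02 to 1.45. A fit to the spleen libraries alone gave the same difference with limma adjusted p = 0.0293. LN libraries do not enter this difference. Leaving out that of Wt mouse 1 or 2 kept its value by construction, and the call then gained came from the shared estimate of spread alone.

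Irf4, the other transcription factor (ENSMUSG00000021356), was 2204 and 4327 in LN of Wt mice, 5329 and 4671 in LN of Tg mice, and 2707 and 2495 in LN of KI mice. The 2 Wt nodes differ 1.96-fold and lie on either side of the KI nodes, and both Tg nodes are above them all. In spleen Irf4 was 9014 and 6065 in Wt, 6798 in Tg mouse 4, and 3292 and 3248 in KI. Both KI spleens lie below every Wt and Tg spleen. The log2 difference between KI and Wt was -1.18 ± 0.31 in spleen (limma adjusted p = 0.0432) and -0.25 ± 0.31 in LN (limma adjusted p = 0.614, 95% interval -0.98 to 0.49).

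The call of Irf4 in spleen and its value in LN depend on single libraries, while the spleen difference was negative in every alternative. The spleen call was kept in 12 of 22 alternatives, the log2 difference ranged from -1.52 to -0.89 and the adjusted p reached 0.222. Leaving out a library ended that call in 8 of 11 cases: either KI or Wt spleen, either KI node or either Tg node. Without the Wt spleen of mouse 1 the difference was -0.89 (limma adjusted p = 0.183), and without that of mouse 2 it was -1.46 (limma adjusted p = 0.0561). In LN the difference was -0.74 without the Wt node of mouse 1 (limma adjusted p = 0.0398) and 0.24 without that of mouse 2 (limma adjusted p = 0.502). Relative to pan B genes it was -0.64 in LN, which was called (limma adjusted p = 0.0195).

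**Figure D2:**
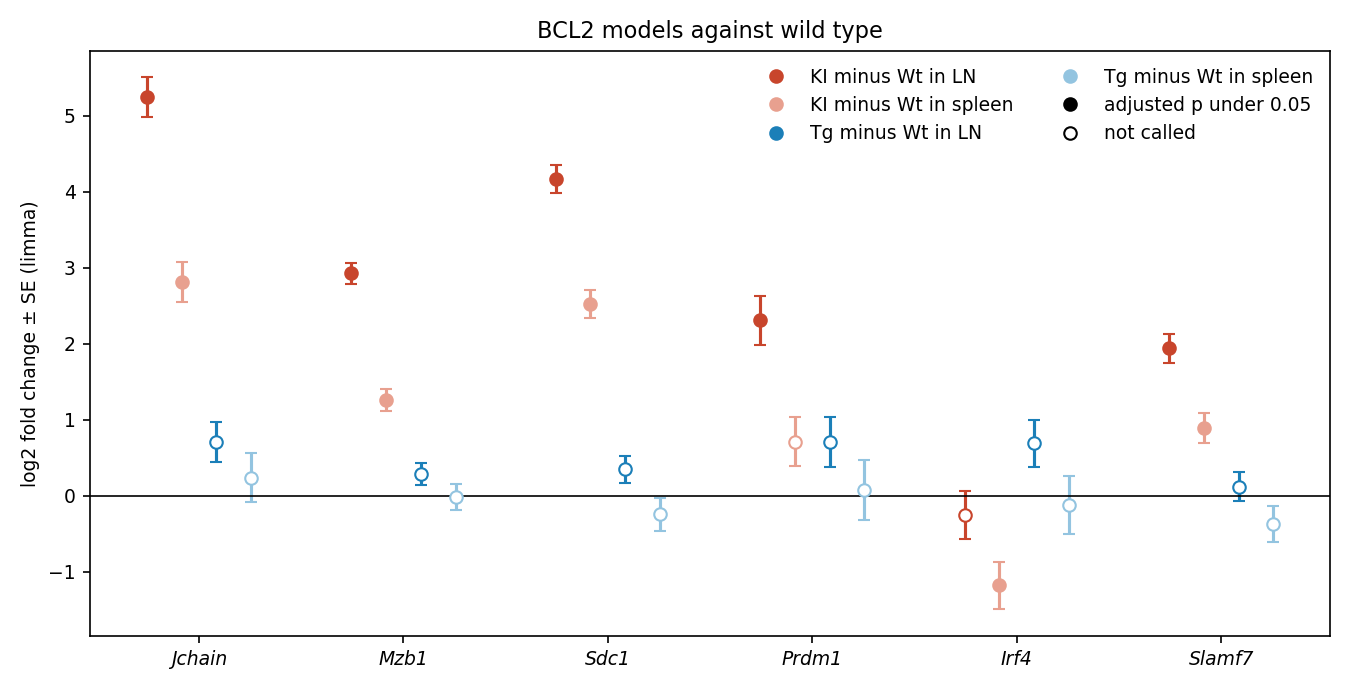
Log2 fold change ± SE (limma) of the 6 genes in KI and Tg mice against Wt mice of the same tissue; filled points passed the adjusted p of 0.05. The KI changes of Jchain, Mzb1, Sdc1, Prdm1 and Slamf7 are larger in LN than in spleen, Irf4 lies at -1.18 in KI spleen, and no Tg change was called.

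The transgenic mice were compared with wild type in the same way. None of the 6 genes was called in Tg LN or Tg spleen (limma), and in both comparisons 0% of all genes were called, with 532 genes in LN and 164 in spleen at an unadjusted p under 0.05. Jchain in LN, at 0.71 ± 0.26 on the log2 scale, was the only 1 of the 6 genes with an unadjusted p under 0.05 in either tissue (limma adjusted p = 0.960). Prdm1 was at 0.71 ± 0.32, Irf4 at 0.69 ± 0.31, Sdc1 at 0.35 ± 0.18, Mzb1 at 0.29 ± 0.14 and Slamf7 at 0.12 ± 0.19 on the log2 scale. All 6 differences were positive, against a median of -0.02 over all genes. They share the same libraries, so their common sign is not 6 separate results. Jchain, Mzb1, Sdc1 and Irf4 were higher in both Tg nodes than in both Wt nodes. The share of all genes placed in this way was not counted. Without the Wt node of mouse 1, Prdm1 was at 0.20, Irf4 at 0.21 and Sdc1 at 0.18, and without the Tg node of mouse 3 Slamf7 was at -0.17 and Jchain at 0.43. The 95% interval of the Jchain difference ran from 0.11 to 1.31. By edgeR on LN reads 0 of the 6 genes and 0 of all 10885 genes were called in Tg LN. By DESeq2 on LN reads 0 of the 6 genes were called, beside 28 of 10883 genes, 27 higher and 1 lower. In spleen the differences ran from -0.37 ± 0.24 (Slamf7) to 0.24 ± 0.32 (Jchain), with 1 Tg library, whose spread was taken from the groups of 2.

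The Tg and KI comparisons share their Wt libraries, so the models were also set against each other. In LN Jchain was 4.53 ± 0.26 higher in KI than in Tg on the log2 scale (limma adjusted p = 4.35e-05), Sdc1 3.82 ± 0.18 (limma adjusted p = 5.06e-06) and Mzb1 2.64 ± 0.14 (limma adjusted p = 8.99e-06). Slamf7 was 1.82 ± 0.19 higher (limma adjusted p = 0.000239) and Prdm1 1.60 ± 0.32 higher (limma adjusted p = 0.0081), though without the Tg node of mouse 4 Prdm1 was at 1.34 (limma adjusted p = 0.0554). Irf4 was at -0.94 ± 0.31 (limma adjusted p = 0.0641), with both KI nodes below both Tg nodes. Wt nodes do not enter this difference, so leaving out either kept the value by construction. The call that Irf4 then gained came from the shared estimate of spread alone. By DESeq2 on reads Irf4 was called at -0.95 (adjusted p = 0.00466). So 5 of the 6 genes were called, against 26.7% of all genes, 14.5% higher and 12.2% lower.

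In spleen 4 of the 6 were higher in KI than in Tg, against 7.71% of all genes called (3.35% higher and 4.35% lower): Sdc1 at 2.77 ± 0.22, Jchain at 2.57 ± 0.32, Mzb1 at 1.28 ± 0.17 and Slamf7 at 1.27 ± 0.24. Their limma adjusted p lay between 0.000374 and 0.0127. Without the KI spleen of mouse 5 Slamf7 was at 1.08 (limma adjusted p = 0.0658). Prdm1 was at 0.64 ± 0.40 (limma adjusted p = 0.350) and Irf4 at -1.06 ± 0.38 (limma adjusted p = 0.137). Leaving out either Wt node kept the Irf4 value by construction, and the call then gained came from the shared estimate of spread alone.

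Spleen and LN were then compared within genotypes. In Wt mice Jchain, Mzb1 and Sdc1 were lower in LN than in spleen, by a log2 difference of -1.79 ± 0.26, -1.44 ± 0.14 and -1.14 ± 0.18 (limma adjusted p = 0.00415, 0.000323 and 0.00342). These 3 of 6 genes compare with 9.38% of all genes called, 3.09% higher and 6.29% lower. Irf4 was at -1.26 ± 0.31 (limma adjusted p = 0.0504), Prdm1 at -1.11 ± 0.32 (0.0702) and Slamf7 at -0.54 ± 0.19 (0.117). With the mouse as a fixed block the Slamf7 difference was called (limma adjusted p = 0.0146). With the mouse as a random block the Irf4 difference was called (limma adjusted p = 0.0496). The fixed block called 1577 of all 10885 genes and the random block 1067, against 1021 in the main fit. Irf4 was also called here under both other scalings, relative to pan B genes and with a pseudocount of 5, with adjusted p from 0.0145 to 0.0497. Without both libraries of mouse 1, Jchain was at -1.57 (limma adjusted p = 0.151), Sdc1 at -0.94 (0.153), Irf4 at -0.49 (0.259), Slamf7 at -0.43 (0.738) and Prdm1 at -0.37 (0.774), and Mzb1 kept its call. Without the Wt node of mouse 2, Irf4 was called at -1.75 (limma adjusted p = 0.00235) and Prdm1 at -1.62 (limma adjusted p = 0.00734). Without the Wt node of mouse 1, Irf4 was at -0.77 (limma adjusted p = 0.0899) and Prdm1 at -0.59 (limma adjusted p = 0.331). Tg nodes do not enter this difference, so leaving out that of mouse 3 or 4 kept Slamf7 at -0.54 by construction. Only the shared estimate of spread changed, and with it the side of the threshold. Relative to pan B genes, which were themselves lower in Wt LN (9 of 12 called), the median of all genes moved to 0.66. On that scale Jchain was at -1.14, Mzb1 at -0.80, Sdc1 at -0.49, all 3 still called, and Slamf7 at 0.10.

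In KI mice the tissue difference was not called for any of the 6 genes by limma, against 9.27% of all genes called (4.78% higher and 4.49% lower), and at an unadjusted p under 0.05 there were 3, Jchain, Sdc1 and Slamf7. The log2 differences were 0.64 ± 0.26 for Jchain, 0.50 ± 0.18 for Sdc1, 0.51 ± 0.19 for Slamf7, 0.49 ± 0.32 for Prdm1, 0.22 ± 0.14 for Mzb1 and -0.33 ± 0.31 for Irf4. With the mouse as a fixed block Slamf7 was called at 0.51 (limma adjusted p = 0.0218). That block called 1472 of all 10885 genes, against 1009 in the main fit. The Slamf7 difference was also 0.51 without the Tg node of mouse 3 or 4, by construction, since Tg nodes do not enter it. Only the shared estimate of spread changed, and with it the side of the threshold. Without the KI spleen of mouse 5 Jchain was called at 1.03 (limma adjusted p = 0.033). Without the KI spleen of mouse 6 Jchain was at 0.25 (limma adjusted p = 0.832). Relative to pan B genes 5 of the 6 were called higher in KI LN, beside 6951 of all 10885 genes, whose median moved to 0.60, and Irf4 was at 0.26.

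The same mouse gave both tissues in 5 cases, so the difference can be read within each mouse. On the log2 scale Jchain in LN minus spleen was -2.005 and -1.57 in Wt mice 1 and 2, -1.60 in Tg mouse 4, and 0.22 and 1.07 in KI mice 5 and 6. Mzb1 was -1.34 and -1.54 in Wt, -1.18 in Tg, and 0.23 and 0.22 in KI. Sdc1 was -1.33 and -0.94 in Wt, -0.65 in Tg, and 0.11 and 0.89 in KI. These 3 genes were lower in LN in every Wt and Tg mouse and higher in LN in both KI mice.

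Prdm1 and Slamf7 had the same signs in the 5 mice, from -1.84 to -0.37 and from -0.65 to -0.33 in Wt and Tg mice and from 0.28 to 0.71 in KI mice. Irf4 was lower in LN in all 5 mice, at -2.03 and -0.49 in Wt, -0.54 in Tg, and -0.28 and -0.38 in KI. Wt mouse 1 stands apart in Irf4 and Prdm1, whose LN values were the lowest of all 11 libraries for each gene.

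**Figure D3:**
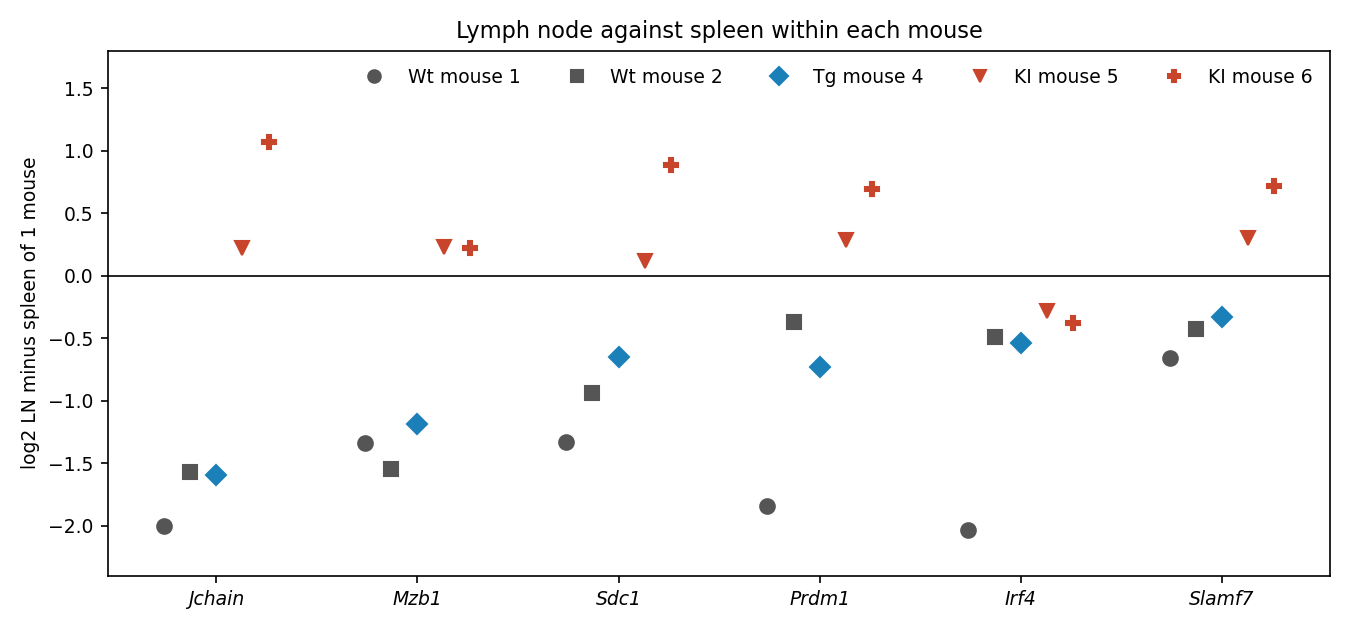
Log2 difference between LN and spleen of the same mouse for the 6 genes. Jchain, Mzb1, Sdc1, Prdm1 and Slamf7 lie below 0 in Wt mice 1 and 2 and Tg mouse 4 and above 0 in KI mice 5 and 6; Irf4 lies below 0 in all 5 mice.

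Whether the knock-in effect differed between tissues was tested as an interaction, the KI minus Wt difference in LN less that in spleen. It was 2.43 ± 0.37 for Jchain (limma adjusted p = 0.0302), 1.66 ± 0.20 for Mzb1 (limma adjusted p = 0.0146) and 1.64 ± 0.26 for Sdc1 (limma adjusted p = 0.0243). These 3 of 6 genes compare with 0.955% of all genes called (0.763% higher and 0.193% lower). Prdm1 was at 1.60 ± 0.46 (limma adjusted p = 0.137), Slamf7 at 1.05 ± 0.27 (0.0963) and Irf4 at 0.93 ± 0.44 (0.402). With the mouse as a fixed block Slamf7 was called at 1.05 (limma adjusted p = 0.00665). That block called 596 of all 10885 genes, against 104 in the main fit. Tg nodes do not enter the interaction, so leaving out that of mouse 3 or 4 kept Slamf7 at 1.05 by construction. Only the shared estimate of spread changed, and with it the side of the threshold. Prdm1 was called at 2.11 without the Wt node of mouse 2 (limma adjusted p = 0.0268). Leaving out both libraries of mouse 1, the KI spleen of mouse 6 or the Wt spleen of mouse 2 ended all 3 calls. Each of these fits leaves 1 library in at least 1 group, and most calls among all genes were lost as well. The differences stayed positive: in that order Jchain was at 2.21, 2.04 and 2.49. Mzb1 was at 1.77, 1.69 and 1.54, and Sdc1 at 1.44, 1.44 and 1.67. The Jchain call was also lost without either KI node, and the Jchain and Sdc1 calls without the Wt node or Wt spleen of mouse 1. The Sdc1 call was lost without the KI node of mouse 6 too.

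The order of the 6 group means was much alike in 5 genes. For Jchain, Mzb1, Sdc1, Prdm1 and Slamf7 it began with LN KI, then spleen KI, and ended with LN Wt, and the KI groups overlapped neither each other nor the rest. Spleen Wt, spleen Tg and LN Tg came between. Neighbours that overlapped were spleen Wt and spleen Tg in Mzb1 and Prdm1, spleen Wt and LN Tg as well as LN Tg and LN Wt in Prdm1, and spleen Tg, LN Tg and LN Wt in Slamf7. For Irf4 the order was spleen Wt, spleen Tg, LN Tg, spleen KI, LN Wt and LN KI, with overlap between the first 2 and between each neighbour of the last 3.

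Other genes of the plasma cell programme were read from lists, counted over measured members. Leaving out a Wt or KI library leaves 1 in its group, and calls among all genes of that tissue fell as well. A lower list count in such a fit is therefore not particular to the list. Among all genes 13.8% rose and 12.2% fell in KI LN, and 7.63% and 9.21% in KI spleen. Of 12 plasma cell regulators 11 rose and 0 fell in KI LN, with a median log2 change of 1.83, against -0.02 for all genes. In KI spleen 8 rose and 0 fell, with a median of 0.66 against 0.01. The spleen count was 3 to 8 when a library was left out, with 4 without the KI spleen of mouse 5, the Wt spleen of mouse 1 or that of mouse 2, and 3 without both libraries of mouse 1 or of mouse 5. Bhlha15 (Mist1), which shapes the secretory apparatus, rose by 2.96 ± 0.21 in LN and 1.67 ± 0.21 in spleen. Xbp1, the transcription factor of the unfolded protein response, rose by 2.24 ± 0.23 and 1.28 ± 0.23, and Zbtb20, a plasma cell survival factor, by 2.19 ± 0.25 and 1.32 ± 0.25. Ell2, the elongation factor that favours secreted heavy chain transcripts, rose by 2.15 ± 0.19 and 0.68 ± 0.19.

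Of 22 genes of the secretory pathway 21 rose and 0 fell in KI LN (median 1.15), and 14 rose and 0 fell in KI spleen (median 0.59). When a library was left out the spleen count ran from 6 to 16, and it was 6 without the KI spleen of mouse 5 or the Wt spleen of mouse 1 and 9 without the KI spleen of mouse 6. Derl3, which serves degradation of misfolded proteins, rose by 3.94 ± 0.20 in LN and 2.19 ± 0.20 in spleen. Txndc5, a disulphide isomerase, rose by 2.09 ± 0.15 and 0.94 ± 0.15. In LN the chaperone co-factor Creld2 rose by 2.02 ± 0.17 and the translocon gene Tram2 by 2.03 ± 0.19.

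Of 12 measured surface receptors of plasma cells, 4 rose and 2 fell in KI LN (median 0.01), and 2 rose and 2 fell in KI spleen (median -0.22). Tnfrsf17 (BCMA), the survival receptor of plasma cells, rose by 3.66 ± 0.46 in LN and 2.06 ± 0.46 in spleen. The table holds only genes that reach 109.3 in some library, and the highest Tnfrsf17 value lies little above that. Such a gene can be in the table only because 1 group is high, so its rise is partly tied to the filter. Tnfrsf13b (TACI) rose by 1.02 ± 0.12 in LN and 0.68 ± 0.12 in spleen. Cd93, which maintains long-lived plasma cells, rose by 3.88 ± 0.41 in LN and was at 1.41 ± 0.41 in spleen (limma adjusted p = 0.0547). The integrin chain Itgb7 fell by 1.04 ± 0.13 in LN, and Cd28, a receptor that T cells carry as well, fell by 1.67 ± 0.31 in spleen. In spleen 1 rose without any 1 of the 4 Wt and KI spleens, and 0 fell without the KI spleen of mouse 5 or 6 or the Wt spleen of mouse 1.

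Of 15 measured immunoglobulin constant regions and polymer partners, the partners of Jchain among them, 7 rose and 2 fell in KI LN (median 3.27), and 4 rose and 0 fell in KI spleen (median 1.87). Igha, whose product Jchain joins into dimers, rose by 2.80 ± 0.28 in LN and 1.98 ± 0.28 in spleen. Ighm, whose product it joins into pentamers, rose by 1.17 ± 0.16 in LN and was at 0.42 ± 0.16 in spleen (limma adjusted p = 0.103). The IgG2 regions, whose products Jchain does not join, rose more: Ighg2c by 5.94 ± 0.62 in LN and 4.55 ± 0.62 in spleen. Constant regions are similar in sequence, and how reads matching several genes were counted is not given in the sources used here. Without the Wt spleen of mouse 1 or of mouse 2 the spleen count was 2, and without the KI node of mouse 6 or either Wt node 1 gene fell in LN. Cd5l, a macrophage product that binds polymeric IgM, fell by 1.61 ± 0.28 in LN.

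Of 17 B cell genes known to be repressed by Prdm1, 8 rose and 4 fell in KI LN (median 0.43), and 2 rose and 3 fell in KI spleen (median 0.32). In LN the germinal centre factor Bcl6 rose by 1.34 ± 0.16 and Spib by 0.78 ± 0.12, while Myc fell by 1.42 ± 0.15 and the IgE receptor Fcer2a by 1.22 ± 0.17. In spleen the inhibitory receptor gene Cd22 rose by 0.55 ± 0.15, while Myc fell by 2.17 ± 0.15 and the complement receptor Cr2 by 1.39 ± 0.16. Without the KI node of mouse 5 the LN count of genes that rose was 5, and without that of mouse 6 the count that fell was 2. Without the Wt node of mouse 2 the count that fell was 2 as well. In spleen 0 rose without the KI spleen of mouse 6 or the Wt spleen of mouse 1, and 1 rose without the other KI or Wt spleen.

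**Figure D4:**
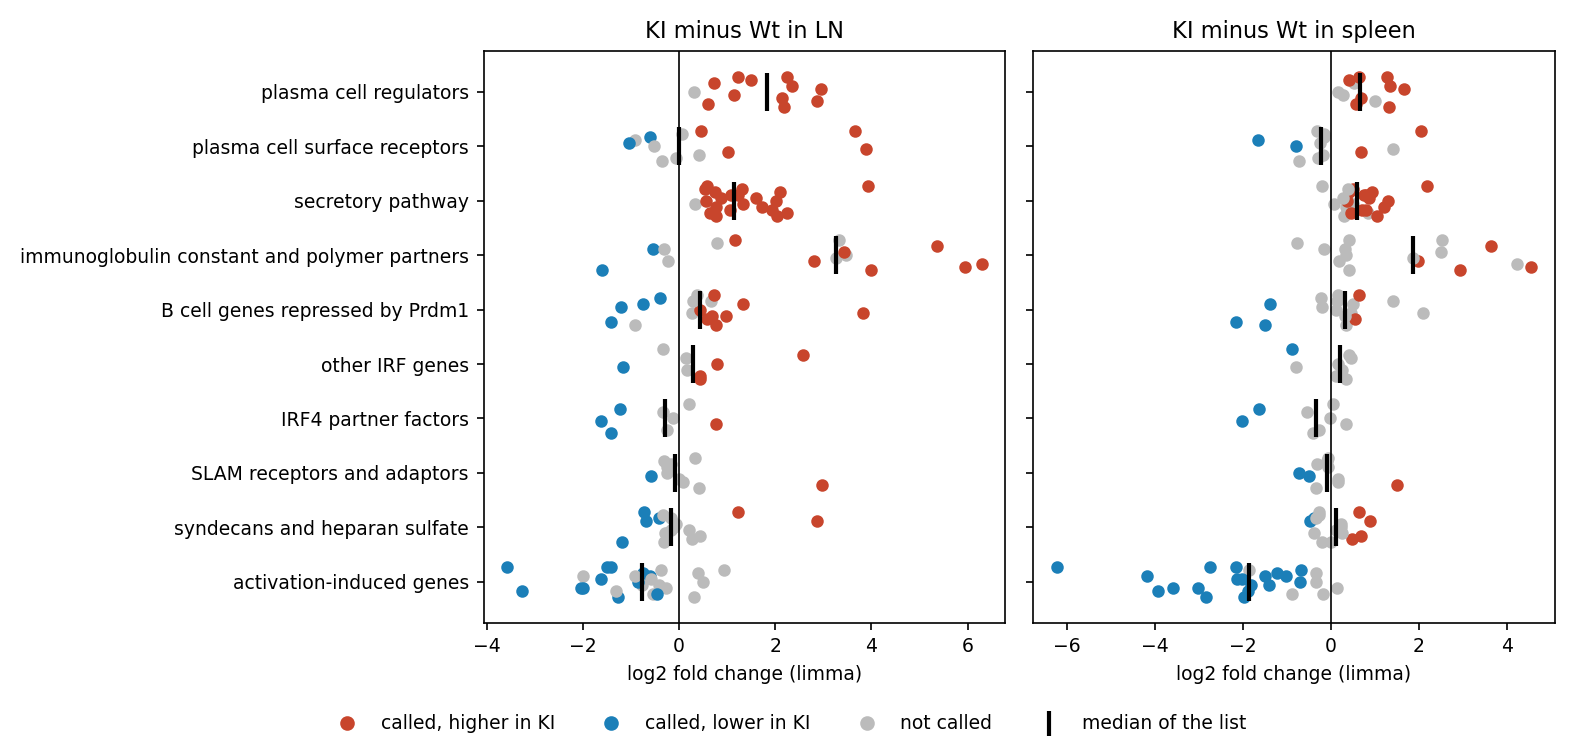
Log2 fold change of every measured gene of the 10 pathway lists in KI minus Wt, for LN (left) and spleen (right); red and blue points were called higher and lower, grey points were not called, and black bars are medians. The secretory and plasma cell regulator lists lie to the right of 0 (medians 1.15 and 1.83 in LN), and the activation-induced genes lie to the left (medians -0.77 in LN and -1.87 in spleen).

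The relatives and partners of Irf4 were read next. Of 8 other IRF genes 4 rose and 1 fell in KI LN, and 0 rose and 1 fell in KI spleen; without either Wt node 2 rose in LN. Irf7, a factor of the interferon response, rose by 2.59 ± 0.25 in LN and was at 0.40 in spleen, and Irf1 fell by 0.90 ± 0.13 in spleen. Of 8 factors that bind DNA with IRF4, 1 rose (Spib) and 3 fell in KI LN, and 0 rose and 2 fell in KI spleen. The AP-1 genes Junb and Jund fell in both tissues, Junb by 1.62 ± 0.34 in LN and 2.02 ± 0.34 in spleen and Jund by 1.22 ± 0.32 and 1.63 ± 0.32. Without the Wt spleen of mouse 1 or the KI spleen of mouse 5 neither was called in spleen, and without either KI node 1 of the partner genes was called lower in LN.

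In KI spleen, where Irf4 fell, a list of 25 activation-induced genes was lower as well. These genes are switched on by receptor signals and by cell stress. Of these 12 fell and 0 rose in KI LN (median -0.77), and 19 fell and 0 rose in KI spleen (median -1.87). Atf3, a stress factor, fell by 3.57 ± 0.51 in LN and 6.24 ± 0.51 in spleen, and Nr4a3, an orphan receptor induced by antigen, fell by 1.28 ± 0.25 and 1.98 ± 0.25. The summed signal of the list was 242883 and 191654 in the Wt spleens, 209471 in the Tg spleen, and 71746 and 67698 in the KI spleens. In LN it was 120289 and 180466 in Wt, 125518 and 190420 in Tg, and 86436 and 65046 in KI. The Wt node of mouse 1, which had the lowest Irf4, also had the lower sum of the Wt pair, while of the Tg nodes mouse 3 had the higher Irf4 and the lower sum. The part of this list in the Irf4 result was not tested. Without a library the spleen count of genes that fell ran from 9 to 19, with 10 without the Wt spleen of mouse 1, 11 and 12 without the KI spleen of mouse 5 or 6, and 9 without both libraries of mouse 6. The LN count was 8 without either KI node.

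Relatives of the surface genes were called in both directions, as all genes were. Of all genes 13.8% were higher and 12.2% lower in KI LN, and 7.63% and 9.21% in KI spleen. Of 10 measured SLAM receptors and adaptors, the family of Slamf7, 1 rose and 1 fell in KI LN and 1 rose and 2 fell in KI spleen, with medians of -0.08 in both. Slamf9 rose by 2.97 ± 0.39 in LN and 1.51 ± 0.39 in spleen. It was 29.0 and 13.1 in the Wt nodes and 147 and 176 in the KI nodes. It may be in the table through its KI values, so its rise is partly tied to the filter at 109.3. Cd84 fell by 0.57 ± 0.11 in LN and 0.50 ± 0.11 in spleen. Of 17 measured syndecan and heparan sulfate genes, around Sdc1, 2 rose and 4 fell in KI LN and 4 rose and 2 fell in KI spleen. Hpse, the enzyme heparanase that cuts the sugar chains of Sdc1, rose by 2.88 ± 0.19 in LN and 0.89 ± 0.19 in spleen. Its values in LN were 269 and 205 in Wt, 637 and 490 in Tg, and 1712 and 1748 in KI. Sdc3, another syndecan, rose by 1.22 ± 0.13 and 0.65 ± 0.13, and Sulf2, which removes sulfate groups, fell by 1.19 ± 0.17 in LN. Without the KI spleen of mouse 5 or the Wt spleen of mouse 1, none of the syndecan list was called in spleen; without the KI spleen of mouse 6 or the Wt spleen of mouse 2, 2 rose and 0 fell, and without the KI node of mouse 5 the count that fell in LN was 2. Slamf9 was not called in spleen without any 1 of the 4 Wt and KI spleens, and the count of SLAM genes that fell there was 0 without the KI spleen of mouse 6 or the Wt spleen of mouse 1 and 1 without the other KI or Wt spleen.

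Several marker lists of other cells changed in KI tissue, some upward and some downward, and their part in the results was not tested. Of 10 germinal centre B cell genes 9 rose in KI LN (median 2.93) and 4 in KI spleen (median 1.42), and none fell; the spleen count was 2 without the KI spleen of mouse 5 or the Wt spleen of mouse 1. The summed signal of that list was 4317 and 4013 in the Wt nodes, 7960 and 6616 in the Tg nodes, and 26044 and 20232 in the KI nodes. Of 12 pan B genes 6 rose and 1 fell in KI LN (median 0.42), and 4 rose and 0 fell in KI spleen (median 0.37). In LN 3 rose without the KI node of mouse 5 or the Wt node of mouse 1, and in spleen 1 to 2 rose without any 1 of the 4 Wt and KI spleens. The pan B sum was 69883 to 78850 in Wt LN and 93986 to 116240 in KI LN, and 110078 to 119658 in Wt spleen and 147576 to 160239 in KI spleen. Of 13 pan T genes 13 fell in KI LN and 11 in KI spleen (median -1.01 in LN), with sums of 88085 to 94716 in Wt LN and 40368 to 49949 in KI LN.

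Of 12 proliferation genes 11 rose in KI LN (median 1.24, with 2, 3, 4 and 7 when the KI node of mouse 5, the Wt node of mouse 2 or 1 or the KI node of mouse 6 was left out) and 0 in KI spleen (median -0.52). Of 11 macrophage genes 8 fell in KI LN (median -1.60) and 0 were called in KI spleen, and of 11 NK and cytotoxic genes, a set of cells that can carry Slamf7, 0 rose and 2 fell in LN and 0 rose and 3 fell in spleen. Without the KI spleen of mouse 5 or the Wt spleen of mouse 2 none of the NK and cytotoxic genes was called in spleen, 1 fell without the Wt spleen of mouse 1, and 5 fell without either KI node. The NK and cytotoxic sum was 5584 and 5867 in the Wt nodes and 3379 and 4314 in the KI nodes. Of 9 measured dendritic genes 2 rose and 1 fell in LN and 0 rose and 1 fell in spleen, with 5 higher in LN without the KI node of mouse 5 and 1 without any other KI or Wt node. Of 10 genes of regulatory and activated T cells, which can carry Irf4 and Prdm1, 1 rose and 1 fell in LN and 0 rose and 3 fell in spleen. In spleen 0 of them fell without the KI spleen of mouse 6 or the Wt spleen of mouse 2, and 5 fell without either Wt node. None of the 8 neutrophil genes or the 7 measured erythroid genes was called in either tissue. Without the KI spleen of mouse 6, 4 erythroid genes were higher in KI spleen, and without both libraries of mouse 1, 4 neutrophil genes were lower there. Their spleen medians were -2.43 and 3.47.

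Relative to the mean log2 signal of the 12 pan B genes, Jchain was at -0.62 in Wt LN, 0.02 in Tg LN and 4.23 in KI LN, and at 0.53, 0.83 and 3.00 in the 3 spleen groups. Irf4 on this scale was at -0.72, -0.10 and -1.36 in LN and at -0.10, -0.16 and -1.62 in spleen. The difference between KI and Wt therefore remained for Jchain, and for Irf4 it was downward in both tissues. Bcl2 (ENSMUSG00000057329), whose mouse gene is measured and which need not report an inserted BCL2, gave 2338 and 2716 in the Wt nodes against 1246 and 1664 in the KI nodes, and fell by 0.81 ± 0.20 in KI LN and 0.98 ± 0.20 in KI spleen.

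Within the 6 genes, 5 shared a pattern over the libraries and Irf4 did not, which is given as a description since the points share genotype, tissue and mouse. The KI libraries stand apart, so values are also given over the 7 Wt and Tg libraries. Over all 11 libraries Pearson's r of log2 signal with Jchain was 0.991 for Sdc1, 0.979 for Mzb1, 0.966 for Slamf7, 0.937 for Prdm1 and -0.383 for Irf4. Over the 7 libraries without KI, the r of Irf4 was 0.979 with Prdm1, 0.906 with Sdc1, 0.879 with Jchain, 0.774 with Mzb1 and 0.655 with Slamf7. Irf4 thus varied alongside the other genes in Wt and Tg tissue, and the opposite sign appeared when the KI libraries were included. These 7 libraries come from both tissues, and the pattern was not particular to plasma cell genes. Over them the r of Irf4 was 0.861 with the pan B list, 0.788 with the NK and cytotoxic list and -0.822 with the pan T list. With the germinal centre B and dendritic lists it was -0.222 and -0.106. The part of tissue in these values was not tested.

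**Figure D5:**
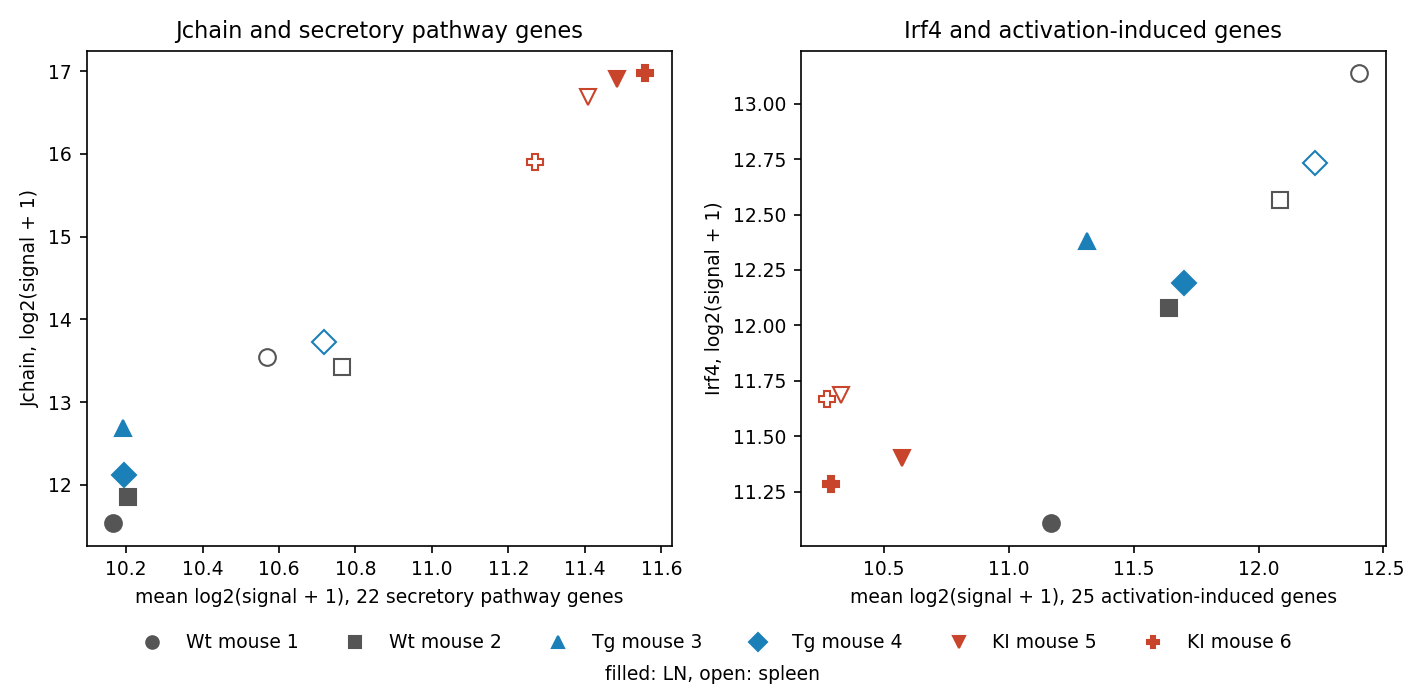
Left: log2 signal of Jchain against the mean log2 signal of 22 secretory pathway genes. Right: log2 signal of Irf4 against the mean of 25 activation-induced genes; each point is a library (filled LN, open spleen), and the KI libraries are at the top right on the left side and at the lower left on the right side.

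The 3 genes most like each member over the 11 libraries, by Pearson's r among 10231 candidates, are named as a description. Most like Jchain were Derl3 (0.993), Pls1 (0.992) and Atp6v0a1 (0.992), and most like Sdc1 were Camk2a (0.995), Derl3 (0.991) and Crebrf (0.991). Most like Mzb1 were Pon3 (0.994), Oosp1 (0.992) and Prkcd (0.987). Most like Slamf7 were Fam214a, Camk2a (0.982) and Msi2 (0.980), and most like Prdm1 were Setbp1 (0.973), Slc25a33 (0.973) and Cd93 (0.965). Derl3 is thus near both Jchain and Sdc1, and Camk2a near both surface genes. Most like Irf4 were Plpbp (0.992), Smcr8 (0.966) and Dpm1 (0.960), none of which is among the 3 nearest genes of another member. Plpbp was 1930 and 1693 in the Wt spleens and 1228 and 1293 in the KI spleens, and 1040 and 1475 in the Wt nodes against 1129 and 1056 in the KI nodes, so its Wt node of mouse 1 was also low.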

How the data were processed

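RNA-seq values of 11 libraries were read from the authors' deposited table, a normalised signal of 10885 genes, which holds gene counts divided by 1 factor per library (read from the values). Per the submitters' processing notes, which give neither role nor order, the build was GRCm39 and the tools were DESeq2 1.26.0, Subread 1.4.6, featureCounts, STAR 2.5 and FastQC 0.11.5; strand and gene filter are not given in the sources used here. Every gene reaches at least 109.3 in 1 library, so weaker genes are outside the table. A weak gene may have entered through its KI libraries alone, so among weak genes the filter favours rises in KI. The members and lists were chosen with earlier results of these data known. An edgeR test was planned for raw counts; for normalised values limma-trend 3.58.1 (R 4.3.3, trend and robust) was fitted to log2(signal + 1) over all 11 libraries with 6 group means, leaving 5 residual degrees of freedom, and p-values were adjusted over all genes. Fold changes on this scale understate low genes. Alternatives were other pseudocounts (0.1 and 5), a filter at a mean of 100, other scalings, fits to 1 tissue, the mouse as a block (statmod 1.5.0), edgeR 4.0.16 and DESeq2 1.42.0 on LN reads recovered as whole multiples (tolerance 0.05 reads, 100% of values), and each library left out; leaving out mouse 5 or 6 was added after seeing the data. Subject labels pair the 2 tissues of a mouse: deviations from the group mean correlated at 0.403 in Wt and 0.900 in KI mice, and the consensus correlation was 0.0168. Named genes were all members, Bcl2, up to 4 called genes of smallest p per pathway list (some fall under several lists) and the 3 genes most like each member; further genes in the text were chosen after their values were seen. The fit was tested on simulated data. Some list members are not reported here by name.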

Additional observations from a re-analysis of the deposited data

Results flagged for a closer look

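The knock-in effect differed between LN and spleen in 3 of the 6 genes by the interaction test, against 0.955% of all genes. Each of the 3 calls was lost in some fits with a library left out, while the differences stayed positive. For Jchain the KI minus Wt log2 difference was larger in LN by 2.43, for Mzb1 by 1.66 and for Sdc1 by 1.64, with limma adjusted p of 0.0302, 0.0146 and 0.0243. The LN minus spleen difference of Jchain was -1.79 in Wt and 0.64 in KI mice, that of Mzb1 -1.44 and 0.22, and that of Sdc1 -1.14 and 0.50. Groups of 2 libraries were too small to be searched for single samples that stand apart.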

How the results depend on the processing

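Over 54 values of the 6 genes and 1128 alternative values, 1046 kept direction and side of the threshold, 34 lost a call, 39 gained one and 9 changed sign. Sign changes of Irf4 were 0.24 in KI minus Wt LN without the Wt node of mouse 2 (range over left-out libraries -0.74 to 0.24), 0.26 in LN minus spleen of KI relative to pan B genes, and 0.16 in Tg minus Wt spleen without the Wt spleen of mouse 1 or both libraries of mouse 1 (range -0.41 to 0.16). Mzb1 in Tg minus Wt spleen was 0.047 relative to pan B genes and 0.12 without the Wt spleen of mouse 2 (range -0.14 to 0.12), and Prdm1 there was -0.15 without that spleen (range -0.15 to 0.30). Slamf7 was 0.10 in LN minus spleen of Wt relative to pan B genes and -0.17 in Tg minus Wt LN without the Tg node of mouse 3 (range -0.17 to 0.41). The cause was not tested. The number of members called in the interaction was 3, 0 without both libraries of mouse 1, and 0 to 4 when single libraries were left out. For KI minus Wt in spleen it was 5, 3 without both libraries of mouse 5, and 3 to 6 with single libraries left out. For LN minus spleen it was 0 in KI, 5 relative to pan B genes (a scaling with 7185 of all 10885 genes called there, against 1009) and 0 to 1 with single libraries left out, and 3 in Wt, 1 without mouse 1 and 3 to 5 with single libraries left out. With the mouse as a fixed replicate block, 1 member was called in LN minus spleen of KI, and Slamf7 also gained a call in Wt and in the interaction; with the mouse as a random block, Irf4 gained a call in LN minus spleen of Wt. The block changed no other call of a member, and the fixed block raised the number of called genes in each of its comparisons. KI minus Wt in LN gave 5 to 6 members called in all 24 alternatives, and Tg minus Wt gave 0 in every alternative of both tissues. Where KI minus Wt in LN gave 6, the added gene was Irf4, which was lower in KI. The fewest reads of a member in an LN library were 66, for Prdm1 in Wt mouse 1, where Mzb1 had 76. In Wt mouse 2 and Tg mice 3 and 4 Mzb1 had fewer LN reads, at 116, 111 and 175. Prdm1 had 199, 211 and 247 there. Whether depth limits a result was not tested.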

Other observations

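The light chains read beside Jchain differed between the 2 KI mice, a comparison chosen after the values were seen and not tested. Igkc, the kappa constant region, was 336217 in spleen and 419339 in LN of KI mouse 5, and 5793 and 4235 in KI mouse 6. Iglc1, a lambda constant region, was 20320 and 23896 in mouse 5 and 111858 and 147481 in mouse 6. The Wt libraries held 22589 to 81719 for Igkc and 692 to 3210 for Iglc1. The heavy chain region Ighg3 differed as well, at 4396 and 8867 in mouse 5 and 46480 and 31927 in mouse 6. In LN Jchain and Mzb1 were nearly equal in these 2 mice, while in spleen Jchain was higher in mouse 5.

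In Tg LN the germinal centre genes lay above Wt without a call: all 10 log2 differences were positive, with a median of 1.14, beside 0.71 for Jchain.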
